A study of Mus musculus with 24 samples.

Results

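Lung memory B cells sorted as CCR6+CD69+ were compared with lung memory B cells sorted as CCR6-CD69-, across both genotypes of the study. All 8 CCR6+CD69+ libraries and all 8 CCR6-CD69- libraries were used, 16 of the 24 bulk RNA libraries in the series, and membership was taken from the sample titles alone. The mice had been sensitised through the nose with house dust mite extract with a second dose of that allergen weeks afterwards, and the cells, labelled csMBC, were sorted after the second exposure. Each population held 4 libraries labelled SCAP cKO, from SCAP fl/fl hCD20-TamCre mice in which SCAP was deleted before the second exposure, and 4 labelled WT, from SCAP +/+ hCD20-TamCre mice. Both genotypes therefore carried the hCD20-TamCre transgene, an inducible Cre driven in B cells, so the comparison does not bear on that transgene. The labels give no age, sex or strain, and nothing in them says whether replicates were separate mice, so every p-value here refers to the spread among these libraries alone. Each population and genotype had 2 libraries in batch 1 and 2 in batch 2, as the labels number them. The remaining 8 libraries, from circulating cells, are given beside some genes as levels and did not enter the test.

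CCR6 is the receptor for the chemokine CCL20, which is made by epithelium and draws lymphocytes towards mucosal surfaces. CD69 is a membrane protein of recently activated and tissue-resident lymphocytes that binds the egress receptor S1PR1 and takes it off the cell surface, so that CD69-bearing cells leave tissue less readily. Memory B cells that remain in the lung after allergen or infection can turn into antibody-secreting cells when the antigen returns, while those that recirculate use S1PR1, adhesion molecules and integrins to pass between blood and lymphoid organs. The comparison addresses how the CCR6+CD69+ lung cells differ in their RNA from lung cells that lack both markers, whichever genotype they came from.

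Total counts, summed over the gene rows analysed, ran from 2081557 to 8566243 in CCR6+CD69+ libraries and from 129025 to 4641148 in CCR6-CD69- libraries. Levels are given as CPM, the counts of a gene per 1000000 counts of its library, and a level set by 3 counts, the limit that a count of 0 allows, lay between 0.350 and 1.44 CPM in CCR6+CD69+ libraries and between 0.646 and 23.3 CPM in CCR6-CD69- libraries. Such limits cover counting error only. One library stood apart: cKO lung CCR6-CD69- replicate 4 had 129025 counts and 2134 genes detected, against 4643 to 7316 genes detected in the other 7 CCR6-CD69- libraries. Results are therefore given with it and, where they move, without it. Another pair of CCR6-CD69- libraries, cKO replicate 1 and WT replicate 2, had the macrophage gene Chil3 as their most abundant gene, at 3.26% and 2.86% of counts. The share of counts from genes of ribosomal proteins was 8.52 to 14.2% among batch 1 libraries and 2.80 to 3.59% among those of batch 2, with both populations in each batch. The B cell gene Ms4a1, which encodes CD20, was abundant in both populations: it had a median of 1478 CPM (lowest 1218, highest 1718) in CCR6+CD69+ libraries, against 994 CPM (lowest 580.2, highest 1312) in CCR6-CD69- libraries, and did not pass the test (log2 fold change 0.62 ± 0.25, SE; adjusted p = 0.349).

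Neither sorting marker could be read as a check on the sort. The row for Ccr6 was not analysed here. Cd69 was counted at a lowest 659, median 1088 and highest 1680 CPM in CCR6+CD69+ libraries, and at a lowest 603, median 834 and highest 4224 CPM in CCR6-CD69- libraries. The highest value belonged to the library with the fewest counts, and the remaining 7 CCR6-CD69- libraries held at most 982 CPM. Cd69 transcript did not pass the test, with a log2 fold change of 0.01 ± 0.30 (adjusted p = 0.997) and of 0.41 ± 0.17 without that library (adjusted p = 0.277), and its direction turned in batch 2 alone (-0.30) and with relative log expression scaling (-0.30). Counts of Scap, the target of the deletion, stood at 43.5 to 138 CPM in cKO CCR6+CD69+ libraries and 66.2 to 134 CPM in WT CCR6+CD69+ libraries. In CCR6-CD69- libraries they stood at 86.5 to 139 CPM in 3 cKO libraries and at 0 in the low-count one, and at 115 to 170.2 CPM in WT libraries. The values are sums over all exons, and the lost exons were not separated from the rest.

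Most genes that differed between the populations were lower in CCR6+CD69+ cells. With genotype and batch as covariates, edgeR's quasi-likelihood test called 88 of 6616 genes (1.33%) at an adjusted p under 0.05. Calls below are from that fit, with trimmed mean of M values scaling, unless another tool or scaling is named. Only 6 of them (0.0907% of genes tested) were higher in CCR6+CD69+ libraries and 82 (1.24%) were lower. For 50 of the 82 the log2 fold change was below -4, and 27 of the 82 had no count in at least 4 of the 8 CCR6+CD69+ libraries. The values of the populations did not overlap for 16 of the 82 genes that fell and for 1 of the 6 that rose. Among all 6616 genes tested, called or not, 23 had no overlap. The median log2 fold change of all genes tested was 0.15, and 0.05 with relative log expression scaling in place of trimmed mean of M values. Counts of called list members below are to be read beside these shares over all genes. Other tools called more of the same 6616 genes: DESeq2 298 (57 higher, 241 lower) and limma voom 434 (127 higher, 307 lower). Their counts within lists are to be read beside those totals. Without the library of 129025 counts, 190 of 6857 genes (2.77%) were called, 40 of them higher (0.583%) and 150 lower (2.19%), and 85 of the 88 were among them. All 88 genes kept their direction in that fit and in each of the other alternative fits in which they could be tested. Those fits reuse libraries that chose the 88 genes, so a kept direction is not independent support.

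**Figure D1:**
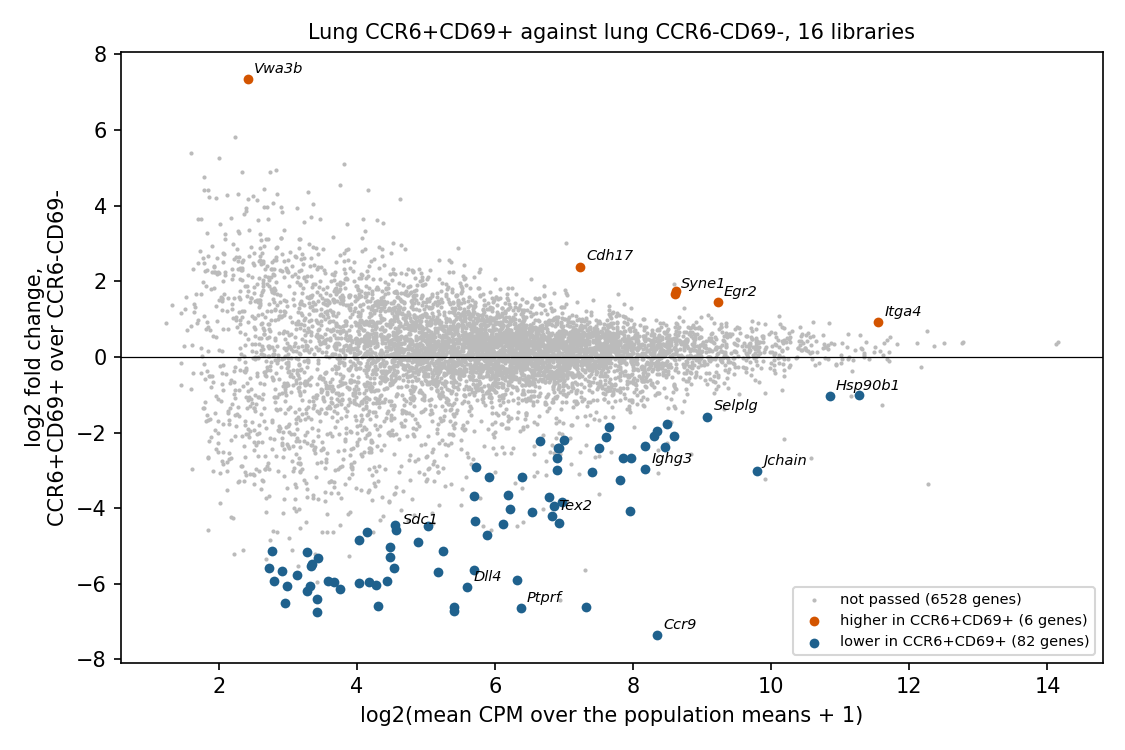
Each point is one of the 6616 genes tested, with log2 of its mean level (CPM plus 1) on the horizontal axis and its log2 fold change, CCR6+CD69+ over CCR6-CD69-, on the vertical axis. The 6 genes that rose (orange) lie between 0.92 and 7.34, and the 82 that fell (blue) reach down to -7.35.

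Among the 6 genes that rose in CCR6+CD69+ cells, Egr2, a zinc finger transcription factor switched on by antigen receptor signals, and Itga4, the alpha chain of the integrins that bind VCAM-1, were the most abundant. Egr2 was counted at a lowest 636, median 808 and highest 1179 CPM in CCR6+CD69+ libraries, against a lowest 15.5, median 299 and highest 778 CPM in CCR6-CD69- libraries. Only WT replicate 2 of the CCR6-CD69- libraries reached into the CCR6+CD69+ range. Egr2 had a log2 fold change of 1.45 ± 0.38 (adjusted p = 0.0365), and of 1.17 ± 0.24 (adjusted p = 0.00368) without the low-count library, in which it was lowest. The call held in 7 of 16 fits that left out 1 library each, with an adjusted p of at most 0.0872. In circulating libraries Egr2 ranged from 39.2 to 240.2 CPM.

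Itga4 averaged 3820 ± 1505 CPM in CCR6+CD69+ libraries and 2183 ± 1615 CPM in CCR6-CD69- libraries, where ± is the SD and n = 8 each. The highest CCR6-CD69- value, 5720 CPM, came from the low-count library, and WT replicates 3 and 4 also reached the CCR6+CD69+ range of 2050 to 5601 CPM. Its log2 fold change was 0.92 ± 0.24 (adjusted p = 0.0311) with all libraries and 1.12 ± 0.17 (adjusted p = 7.23e-05) without that one. The call held in 5 of 16 fits with 1 library left out, and the highest adjusted p among them was 0.11.

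Syne1, which links the nuclear envelope to the cytoskeleton, was counted at 251 to 927 CPM in CCR6+CD69+ libraries, against 46.5 to 421 CPM in CCR6-CD69- libraries, with 3 libraries of each population in the shared range (log2 fold change 1.66 ± 0.39, adjusted p = 0.0131). Tamalin, a scaffold protein, was the single riser whose values did not overlap: 438 to 760.3 CPM in CCR6+CD69+ libraries, against 0 to 413 CPM in CCR6-CD69- libraries (log2 fold change 1.74 ± 0.43, adjusted p = 0.0194). The Syne1 call was lost without WT CCR6+CD69+ replicate 1 (adjusted p = 0.0538) and the Tamalin call without cKO CCR6+CD69+ replicate 1 (adjusted p = 0.0794). Cdh17, a cadherin that in mice is also found on B cells, was counted at 160.3 to 306 CPM in CCR6+CD69+ libraries, against 0 to 203 CPM in CCR6-CD69- libraries, and rose by 2.38 ± 0.59 on the log2 scale (adjusted p = 0.0219). Its call was lost without cKO CCR6+CD69+ replicate 2 or cKO CCR6-CD69- replicate 3 (adjusted p up to 0.0567). Cdh17 was low in circulating libraries too, at 0 to 70.6 CPM. Vwa3b had 267 counts over 7 of the 8 CCR6+CD69+ libraries and 0 counts in all 8 CCR6-CD69- libraries, which is at least 45.4-fold higher when 3 counts over the 8 CCR6-CD69- libraries are taken as the floor (adjusted p = 0.0276). Vwa3b passed in 11 of 16 fits with 1 library left out.

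Leaving out the low-count library added 34 genes to these 6 (40 in all). Those of them that stood on a gene list included regulators of lymphocyte retention and of antigen response. Rgs1, a regulator of G protein signalling that dampens the response to chemokines, was counted at 801 to 1179 CPM in CCR6+CD69+ libraries, against 306 to 722 CPM in the other 7 CCR6-CD69- libraries, with no overlap. With 15 libraries its log2 fold change was 0.97 ± 0.20 (adjusted p = 0.00441), while with all 16 it was 0.69 ± 0.31 (adjusted p = 0.426), since the low-count library held 1581 CPM. Mef2c, a transcription factor of B cell activation and survival, had a log2 fold change of 0.94 ± 0.18 with 15 libraries (adjusted p = 0.00137) and of 0.51 ± 0.32 with 16 (adjusted p = 0.64). Nr4a3, an orphan nuclear receptor induced by antigen, had 0.73 ± 0.19 (adjusted p = 0.0283), and 0.90 ± 0.30 with 16 libraries (adjusted p = 0.177). Itgal, the alpha chain of LFA-1, had 0.70 ± 0.19 (adjusted p = 0.0283), and 0.89 ± 0.32 with 16 (adjusted p = 0.219). Kynu, an enzyme of tryptophan breakdown, had values that did not overlap in either set, 123 to 401 CPM in CCR6+CD69+ libraries and 0 to 121 CPM in CCR6-CD69- libraries, with an adjusted p of 0.034 over 15 libraries and 0.142 over 16. Rgs1, Mef2c, Nr4a3 and Kynu were chosen after their values were seen. Tcf7, a transcription factor best known from T cells, had 31.1 to 107 CPM in CCR6+CD69+ libraries, against 1.50 to 46.5 CPM in CCR6-CD69- libraries (log2 fold change 2.57 ± 0.81, adjusted p = 0.119 with 16 libraries and 0.0271 with 15), and was also chosen after its values were seen.

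**Figure D2:**
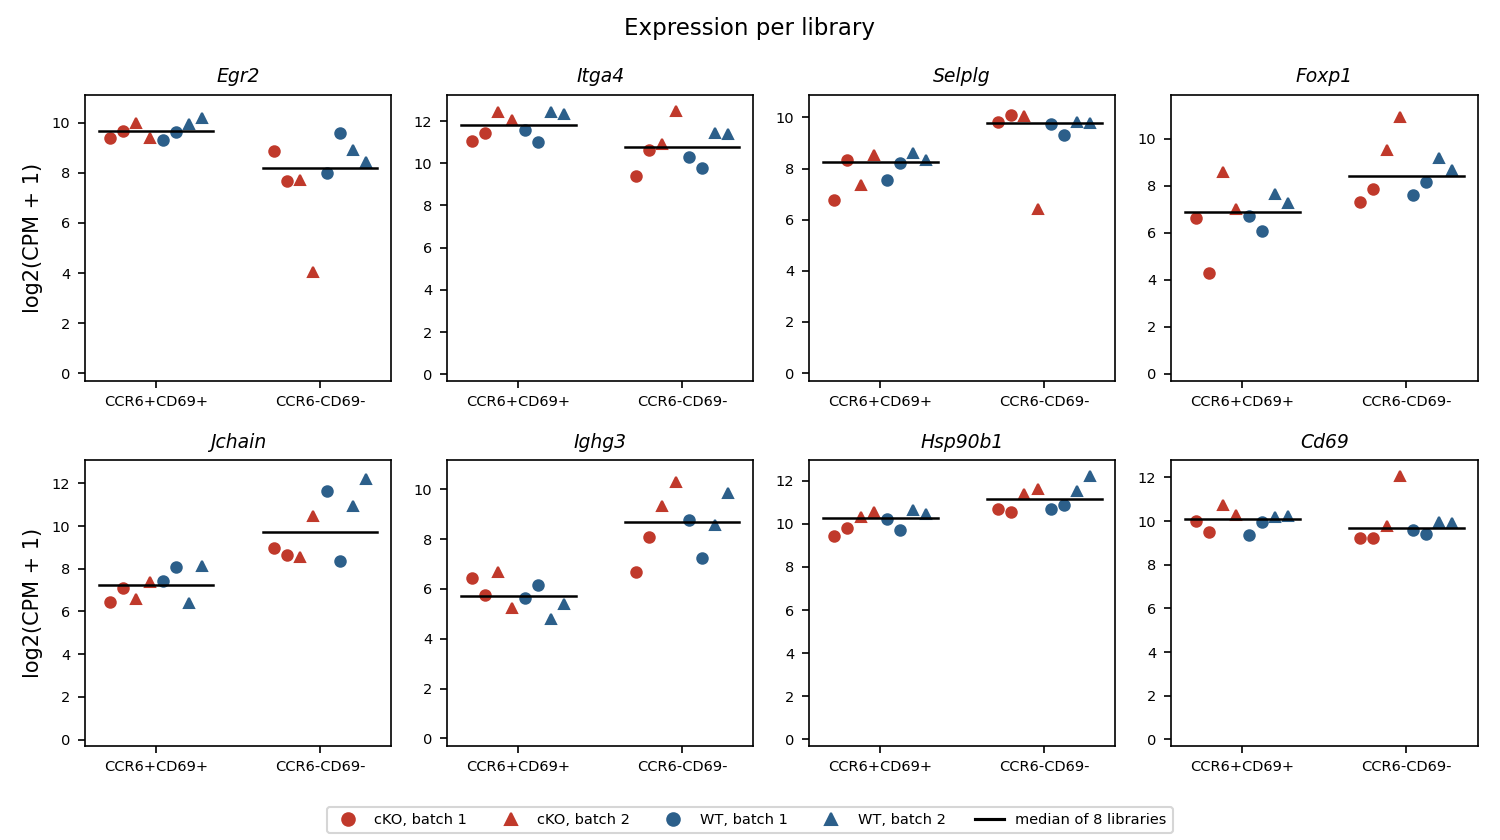
Levels of 8 genes in each library, as log2 of CPM plus 1, with CCR6+CD69+ libraries on the left of each panel and CCR6-CD69- libraries on the right; colour gives genotype, shape gives batch and the bar is the median of 8 libraries. Jchain and Ighg3 have no overlap between populations. In Egr2, Itga4, Selplg, Foxp1, Ighg3 and Cd69 the cKO CCR6-CD69- replicate 4 library is the highest or the lowest of its population.

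Genes of lymphocyte homing and recirculation moved in both directions. Of 20 genes on the list of recirculation and egress, 15 had a row and 13 were tested: 1 rose (Itga4), 4 fell, among them Selplg, Foxp1 and Ccr9, and the median log2 fold change was -0.65 against 0.15 over all genes tested. With relative log expression scaling Itga4 no longer passed and the same number, 4, fell.

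Selplg, which encodes the leukocyte adhesion protein PSGL-1, was counted at a lowest 109, median 308 and highest 391 CPM in CCR6+CD69+ libraries, against a lowest 85.3, median 887 and highest 1094 CPM in CCR6-CD69- libraries. The low-count library alone overlapped, the next lowest CCR6-CD69- value being 637 CPM. Selplg fell by 1.58 ± 0.38 on the log2 scale (adjusted p = 0.0144), and by 1.80 ± 0.23 without that library (adjusted p = 5.3e-06). Foxp1, a transcription factor of quiescent B cells, averaged 145 ± 111 CPM in CCR6+CD69+ libraries and 569 ± 594 CPM in CCR6-CD69- libraries, with 4 CCR6-CD69- libraries inside the CCR6+CD69+ range, and fell by 1.79 ± 0.41 on the log2 scale (adjusted p = 0.0105). The low-count library held the most Foxp1, and without it the CCR6-CD69- mean was 371 ± 217 CPM. The log2 fold change was then -1.50 ± 0.31 (adjusted p = 0.00359). S1pr1, the receptor that guides lymphocytes out of tissue, was counted at 69.9 to 168 CPM in CCR6+CD69+ libraries, against 0 in the low-count CCR6-CD69- library and 150.4 to 576 CPM in the other 7. Its log2 fold change was -1.18 ± 0.52 (adjusted p = 0.418) with 16 libraries and -1.43 ± 0.30 (adjusted p = 0.00407) with 15. Ccr7 and Cxcr4, receptors for lymph node and bone marrow chemokines, had log2 fold changes of 0.10 ± 0.41 and -0.42 ± 0.34 and did not pass (adjusted p = 0.965 and 0.760), Ccr7 being at -0.15 without the low-count library. The 14 tested genes of the tissue residency list had a median of 0.09, and -0.11 with relative log expression scaling. None of the 14 passed in edgeR with trimmed mean scaling and 16 libraries (5 at an unadjusted p under 0.05), whereas 1 passed as lower with relative log expression scaling, 3 as lower in DESeq2, and 2 as higher and 3 as lower in limma voom, while with 15 Rgs1 and Itgal passed as higher and Jun as lower. Rows for Klf2 and Itgae were not analysed here.

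Jchain, Ighg3, Sdc1 and Hsp90b1, genes of antibody secretion, were lower in CCR6+CD69+ cells, while the other tested immunoglobulin constant genes did not pass. Jchain, the chain that joins IgM and IgA into polymers, was counted at a lowest 84.4, median 150.2 and highest 275 CPM in CCR6+CD69+ libraries, against a lowest 325, median 963 and highest 4677 CPM in CCR6-CD69- libraries. The populations did not overlap, and Jchain fell by 3.03 ± 0.44 on the log2 scale (adjusted p = 0.000139), with a log2 fold change of -2.90 ± 0.58 without the low-count library (adjusted p = 0.0211). Ighg3, the IgG3 heavy chain, was counted at a lowest 26.5, median 50.9 and highest 101.8 CPM in CCR6+CD69+ libraries, against a lowest 101.9, median 406 and highest 1248 CPM in CCR6-CD69- libraries. It fell by 2.96 ± 0.49 (adjusted p = 0.000137). The low-count library held the highest value. Without that library the highest was 914 CPM and the log2 fold change -2.75 ± 0.40 (adjusted p = 8.47e-05). The populations touched without overlapping, both at cKO libraries, and the drop of Ighg3 was 1.87 ± 0.53 in batch 1 and 4.05 ± 0.78 in batch 2. Circulating libraries held 0 to 208 CPM of Ighg3, and 6 of 8 CCR6-CD69- libraries lay above all of them. Of the 3 tested immunoglobulin constant genes, 1 was positive and the median was -0.17, and with 15 libraries 2 were positive and the median was 0.21. The light chain genes Iglc1 (log2 fold change 1.70 ± 1.14, adjusted p = 0.672) and Iglc2 (-0.17 ± 0.48, adjusted p = 0.947) did not pass. Sdc1, the plasma cell surface protein CD138, was counted at 0 to 4.62 CPM in CCR6+CD69+ libraries, against 0 to 235 CPM (median 13.1) in CCR6-CD69- libraries. Sdc1 fell by 4.57 ± 1.16 (adjusted p = 0.0242), but 3 CCR6-CD69- libraries lay within the CCR6+CD69+ range, and the call was lost in 6 of 16 fits with 1 library left out (adjusted p up to 0.503).

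Of 19 plasma cell genes, 9 had a row and were tested. Jchain and Sdc1 fell, none rose, 8 of 9 log2 fold changes were negative under each of 3 scalings or tools (trimmed mean of M values, relative log expression, DESeq2), and the median was -1.91. The summed level of those 9 genes was 1094 to 1815 CPM in CCR6+CD69+ libraries, against 1305 to 7862 CPM in CCR6-CD69- libraries. Hsp90b1, the endoplasmic reticulum chaperone that folds secreted proteins, averaged 1174 ± 336 CPM in CCR6+CD69+ libraries and 2509 ± 1094 CPM in CCR6-CD69- libraries, with only cKO replicate 2 of the CCR6-CD69- libraries inside the CCR6+CD69+ range. It fell by 1.04 ± 0.23 on the log2 scale (adjusted p = 0.00776), and lost its call without WT CCR6-CD69- replicate 4 (adjusted p = 0.0506). All 9 tested genes of the unfolded protein response list had negative log2 fold changes, also with relative log expression scaling and in DESeq2, and the median was -0.60, and with 16 libraries Hsp90b1 alone passed in edgeR, under both scalings, while limma voom called 6 of the 9, all lower. With 15 libraries 8 of 9 were negative and 5 fell: Hsp90b1, the chaperone Hspa5 (-0.63 ± 0.16, adjusted p = 0.0263), the disulfide isomerases Pdia3 (-0.84 ± 0.21, adjusted p = 0.0217) and Pdia6 (-0.93 ± 0.21, adjusted p = 0.0115), and Sel1l of protein degradation (-1.07 ± 0.25, adjusted p = 0.0116). Another disulfide isomerase, P4hb, was on no list and was chosen after its values were seen. P4hb had a log2 fold change of -1.29 ± 0.21 (adjusted p = 0.00019) with 15 libraries and -1.17 ± 0.34 (adjusted p = 0.0784) with 16. Rows for Xbp1, Irf4, Mzb1 and most heavy chain genes were not analysed here. In bulk libraries such as these, fewer cells of a type and less RNA per cell cannot be told apart.

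Several of the deepest falls were in genes that are also listed as markers of plasmacytoid dendritic cells, the dendritic cells that secrete type I interferon. That list was drawn up with earlier calls of these libraries known, and its count is not independent evidence of a direction. Of its 36 genes, 21 had a row and 20 were tested: 19 had negative log2 fold changes, 11 fell, none rose, and the median was -3.62. Over all genes tested, 82 of 6616 (1.24%) fell and the median was 0.15. With relative log expression scaling and in DESeq2 19 were also negative. The summed level of the 21 genes was 3357 to 4632 CPM in CCR6+CD69+ libraries, against 5930 to 11556 CPM in CCR6-CD69- libraries, with no overlap, and 8748 to 15401 CPM in circulating libraries. Without the low-count library 13 fell, without the libraries led by Chil3 8 fell, and without all 3 of them 11 fell. The part of such cells in the result was not tested. Rows for the defining markers Siglech, Bst2 and Tlr9 were not analysed here.

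Ccr9, the receptor for the gut and thymus chemokine CCL25, had the largest drop of any called gene. It had no count in 4 of 8 CCR6+CD69+ libraries, whose median was 2.98 and highest value 20.7 CPM, against a lowest 136, median 329 and highest 2713 CPM in CCR6-CD69- libraries. The populations did not overlap, and the log2 fold change was -7.35 ± 1.43 (adjusted p = 0.0221), or -6.76 ± 1.10 without the low-count library, in which Ccr9 was highest (adjusted p = 0.00585). The 4 CCR6+CD69+ libraries without a count were the 4 of batch 2, as they also were for Ptprf, Dll4, Cox6a2 and Pir, so the log2 fold change of Ccr9 was -4.81 ± 0.58 in batch 1 and -13.84 ± 1.26 in batch 2, the second set by libraries at 0. With no count in those libraries, neither the size of the drop in batch 2 nor its SE can be read as measured. Its call was lost without any of cKO replicate 1, cKO replicate 2, WT replicate 1 or WT replicate 4 of the CCR6+CD69+ libraries (adjusted p up to 0.0589). Tbc1d8, a protein with a Rab GTPase activating domain, was counted at 0 to 19.0 CPM in CCR6+CD69+ libraries, against 125 to 971 CPM in CCR6-CD69- libraries (log2 fold change -6.61 ± 0.99, adjusted p = 0.000218). Ptprf, the receptor tyrosine phosphatase LAR, was counted at 0 to 7.23 CPM in CCR6+CD69+ libraries, against 11.8 to 449.5 CPM in CCR6-CD69- libraries (log2 fold change -6.64 ± 0.97, adjusted p = 3.09e-05). Neither gene overlapped between populations, and both passed in all 16 fits with 1 library left out. Their sizes differed between batches 1 and 2: -4.13 ± 0.64 and -11.12 ± 1.44 for Tbc1d8, and -4.31 ± 1.07 and -11.89 ± 1.62 for Ptprf. For Ptprf, as for Ccr9, the size in batch 2 cannot be read as measured.

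Cox6a2, the muscle form of a cytochrome oxidase subunit, had at most 3.28 CPM in CCR6+CD69+ libraries, against a median of 69.5 and a highest value of 203 CPM in CCR6-CD69- libraries (log2 fold change -6.61 ± 1.02, adjusted p = 4.35e-05). Dll4, a ligand of Notch receptors, had at most 9.85 CPM in CCR6+CD69+ libraries, against a median of 82.9 and a highest value of 246 CPM in CCR6-CD69- libraries (log2 fold change -6.09 ± 1.04, adjusted p = 0.000166). Ccnd1, a cyclin of the G1 phase, was counted at 0.291 to 20.1 CPM in CCR6+CD69+ libraries, against a median of 98.2 and a highest value of 233 CPM in CCR6-CD69- libraries (log2 fold change -4.72 ± 0.75, adjusted p = 7.49e-05). In each of these 3 genes the low-count library was at 0 and the other 7 CCR6-CD69- libraries lay above every CCR6+CD69+ library. Lifr, the receptor for leukaemia inhibitory factor, followed the same pattern, with at most 10.7 CPM in CCR6+CD69+ libraries, against a lowest 7.75, median 100.7 and highest 177 CPM in CCR6-CD69- libraries (log2 fold change -4.34 ± 0.82, adjusted p = 0.000892). Pltp, the phospholipid transfer protein, fell by 3.17 ± 0.73 (adjusted p = 0.0101), the C-type lectin Clec10a fell by 4.85 ± 1.31 (adjusted p = 0.042) and the inhibitory receptor Lag3 fell by 4.89 ± 1.25 (adjusted p = 0.0276). These last 3 passed in 14, 6 and 8 of 16 fits with 1 library left out. Zeb2, a zinc finger repressor active in dendritic cells and in some memory B cells, averaged 108 ± 56.4 CPM in CCR6+CD69+ libraries and 522 ± 760.4 CPM in CCR6-CD69- libraries. Zeb2 fell by 2.11 ± 0.47 (adjusted p = 0.00701), with 3 CCR6-CD69- libraries inside the CCR6+CD69+ range, and lost its call without WT CCR6-CD69- replicate 2 (adjusted p = 0.0897). The low-count library held the most, 2372 CPM, and without it the drop was 1.46 ± 0.39 (adjusted p = 0.0314).

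Tcf4, Spib, Irf8 and Irf7, transcription factors of the same list that B cells also use, moved less than the list's median of -3.62. None of them passed in edgeR with 16 libraries, whereas Zeb2, another such factor, fell as given above. Spib and Tcf4 were chosen after their values were seen. Tcf4, the E protein that plasmacytoid dendritic cells depend on, had a median of 1138 CPM in CCR6+CD69+ libraries, against 817 CPM in CCR6-CD69- libraries (log2 fold change 0.26 ± 0.28, adjusted p = 0.82). Spib had a median of 419.8 CPM in CCR6+CD69+ libraries, against 702 CPM in CCR6-CD69- libraries, with a log2 fold change of -0.71 ± 0.33 (adjusted p = 0.474) and of -0.87 ± 0.19 with 15 libraries (adjusted p = 0.00823). Irf8 had values that did not overlap, 579 to 929 CPM in CCR6+CD69+ libraries, against 955 to 3066 CPM in CCR6-CD69- libraries, with a log2 fold change of -0.88 ± 0.27 (adjusted p = 0.111) and of -0.95 ± 0.19 with 15 libraries (adjusted p = 0.00308). Irf7, the interferon regulatory factor of that cell type, had a median of 40.6 CPM in CCR6+CD69+ libraries and 89.5 CPM in CCR6-CD69- libraries and did not pass (log2 fold change -1.65 ± 0.70, adjusted p = 0.392).

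**Figure D3:**
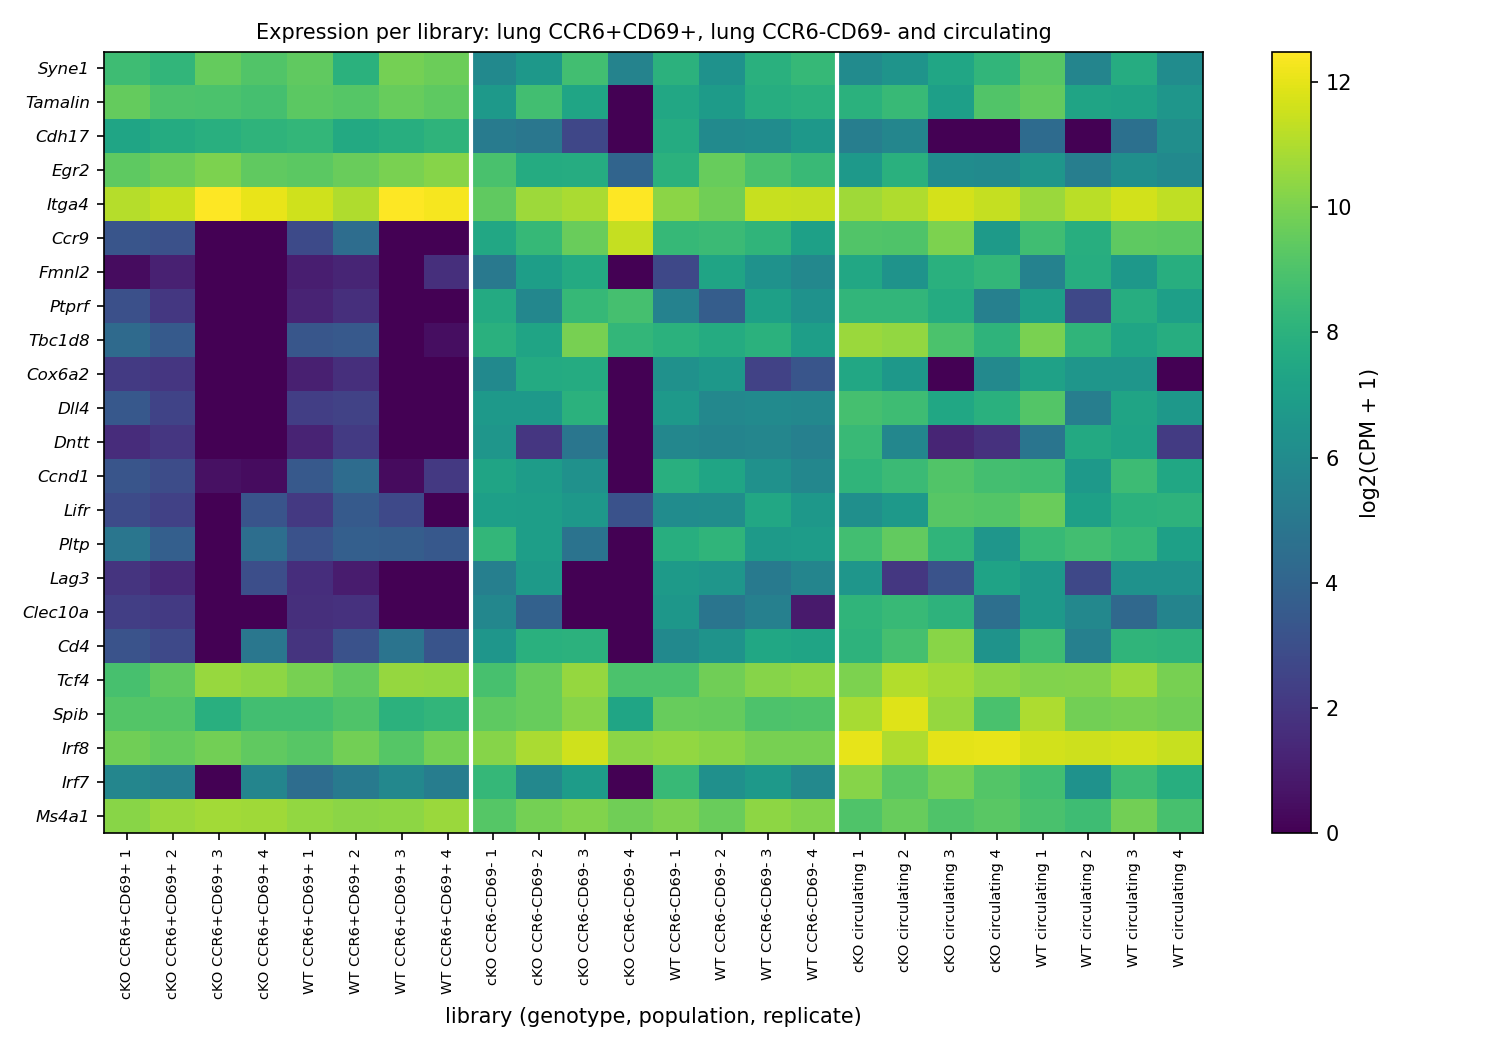
Levels of 23 genes, as log2 of CPM plus 1, in each library, with CCR6+CD69+ libraries on the left, CCR6-CD69- libraries in the middle and circulating libraries, which were not part of the test, on the right. Ccr9, Fmnl2, Ptprf, Tbc1d8, Cox6a2, Dll4 and Ccnd1 hold at most 20.7 CPM in the CCR6+CD69+ libraries, while Tcf4, Irf8 and Ms4a1 are present in all 24.

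Further genes with the deepest falls came from no single list. Fmnl2, a formin of actin assembly, had at most 2.17 CPM in CCR6+CD69+ libraries, against a median of 69.5 and a highest value of 197 CPM in CCR6-CD69- libraries (log2 fold change -6.71 ± 1.06, adjusted p = 6.42e-05). Gpm6b, a membrane proteolipid best known from neurons, had 5 counts in all over the CCR6+CD69+ libraries and 346 over the CCR6-CD69- libraries, where its median was 18.6 CPM (log2 fold change -6.76 ± 1.43, adjusted p = 0.00346). Pir had 22 counts in CCR6+CD69+ and 637 in CCR6-CD69- libraries (log2 fold change -6.59 ± 1.30, adjusted p = 0.00149), and the adaptor protein Fyb2 had 10 counts in CCR6+CD69+ and 260 in CCR6-CD69- libraries (log2 fold change -6.39 ± 1.42, adjusted p = 0.00693). All 4 passed in each of the 16 fits with 1 library left out. The matrix protein Spon1 (7 counts in CCR6+CD69+ and 393 in CCR6-CD69- libraries), the integrin chain Itgad (12 in CCR6+CD69+ and 422 in CCR6-CD69-) and Adamtsl2 (3 in CCR6+CD69+ and 162 in CCR6-CD69-) also fell, with adjusted p of 0.0306, 0.0131 and 0.0156, and rested on few CCR6-CD69- libraries: 4 of 8 lay within the CCR6+CD69+ range for Spon1 and for Itgad. Their calls were lost in 9, 2 and 3 of 16 fits with 1 library left out.

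Among better counted genes, 2 chosen after their values were seen had some of the smallest p. Tex2 was counted at 2.88 to 18.3 CPM in CCR6+CD69+ libraries, against 113 to 378 CPM in CCR6-CD69- libraries (log2 fold change -4.21 ± 0.59, adjusted p = 1.2e-05). Atp1b1, the beta chain of the sodium pump, was counted at 3.55 to 32.2 CPM in CCR6+CD69+ libraries, against 163 to 406 CPM in CCR6-CD69- libraries (log2 fold change -3.83 ± 0.56, adjusted p = 2.63e-05). For both genes the populations did not overlap, the low-count library lay with its own population, and the batches gave nearly the same size: -4.17 and -4.30 for Tex2, and -3.82 and -3.84 for Atp1b1 in batches 1 and 2. Circulating libraries held 178 to 1032 CPM of Tex2 and 362 to 997 CPM of Atp1b1. Dntt, the polymerase that adds bases at V(D)J joints and also chosen after its values were seen, had at most 3.33 CPM in CCR6+CD69+ libraries and a median of 45.2 CPM in CCR6-CD69- libraries (log2 fold change -5.92 ± 1.23, adjusted p = 0.00291).

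Markers of other cell types were set beside these falls. For macrophages and monocytes, all 21 tested genes of 26 had negative log2 fold changes, also with relative log expression scaling and in DESeq2, with a median of -2.56, and none passed in edgeR (6 at an unadjusted p under 0.05, 6 past the threshold in DESeq2, 10 in limma voom). Their summed level, over 24 genes with a row, was 357 to 4950 CPM in CCR6+CD69+ libraries, against 1409 to 63178 CPM in CCR6-CD69- libraries. The upper end came from the pair led by Chil3, a chitinase-like protein of alveolar macrophages, and without that pair 16 of 21 were negative with a median of -0.46. Cd68 was counted at 3.36 to 92.2 CPM in CCR6+CD69+ libraries, against 0 to 981 CPM in CCR6-CD69- libraries (log2 fold change -3.06 ± 1.11, adjusted p = 0.319), and Lyz1 was at 0 in all 16 lung libraries. Tyrobp and Fcer1g, signalling adaptors of myeloid and natural killer cell receptors chosen after their values were seen, fell by 3.04 ± 0.58 (adjusted p = 0.000892) and 2.99 ± 0.62 (adjusted p = 0.00291). For T cells and natural killer cells, 9 of 10 tested genes were negative with a median of -1.76, and 1 fell: Cd4, the co-receptor of helper T cells, which some mouse dendritic cells also carry. Cd4 was counted at 0 to 29.5 CPM in CCR6+CD69+ libraries, against 0 to 260.3 CPM in CCR6-CD69- libraries (log2 fold change -3.66 ± 0.76, adjusted p = 0.00291). Cd3e, which marks T cells, stayed at or below 15.3 CPM in CCR6+CD69+ libraries and 12.7 CPM in CCR6-CD69- libraries. The summed level of 17 T and natural killer cell genes was 80.6 to 215 CPM in CCR6+CD69+ libraries, 23.3 to 845 CPM in CCR6-CD69- libraries and 2050 to 4951 CPM in circulating libraries.

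Markers of neutrophils and other granulocytes leaned the other way, 6 of 8 tested genes being positive with a median of 2.39, but none passed in edgeR (4 at an unadjusted p under 0.05, 2 past the threshold in DESeq2 and 2 in limma voom). Mmp9 was counted at 3.11 to 118 CPM in CCR6+CD69+ libraries, against 0 to 8.82 CPM in CCR6-CD69- libraries (log2 fold change 4.42 ± 1.43, adjusted p = 0.142), and S100a9 at 0 to 1121 CPM in CCR6+CD69+ libraries, against 0 to 288 CPM in CCR6-CD69- libraries (log2 fold change 3.01 ± 1.16, adjusted p = 0.367). Epx, Ltf, Mcpt8 and Fcer1a were at 0 in all 16. Of 10 tested genes of conventional dendritic cells, 6 were positive (4 with relative log expression scaling) with a median of 0.04, and the summed level of the 12 genes with a row was 1716 to 3266 CPM in CCR6+CD69+ libraries, against 310.02 to 3225 CPM in CCR6-CD69- libraries. In that list 2 genes fell: Clec10a, given above, and Sirpa, the receptor for CD47, which had 11.7 to 133 CPM in CCR6+CD69+ libraries, against 132 to 863 CPM in CCR6-CD69- libraries (log2 fold change -3.27 ± 0.57, adjusted p = 0.000218). Of 5 tested genes of lung epithelium, endothelium and stroma, 1 fell: Cdh1, E-cadherin, with at most 14.4 CPM in CCR6+CD69+ libraries, against a median of 117 CPM in CCR6-CD69- libraries (log2 fold change -4.41 ± 0.78, adjusted p = 0.000273). Pdgfra and Pdgfrb were at 0 in all 16, and the summed level of the 17 genes of that list with a row was 249 to 501 CPM in CCR6+CD69+ libraries, against 176 to 707 CPM in CCR6-CD69- libraries. The part of any of these cell types in the falls was not tested.

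**Figure D4:**
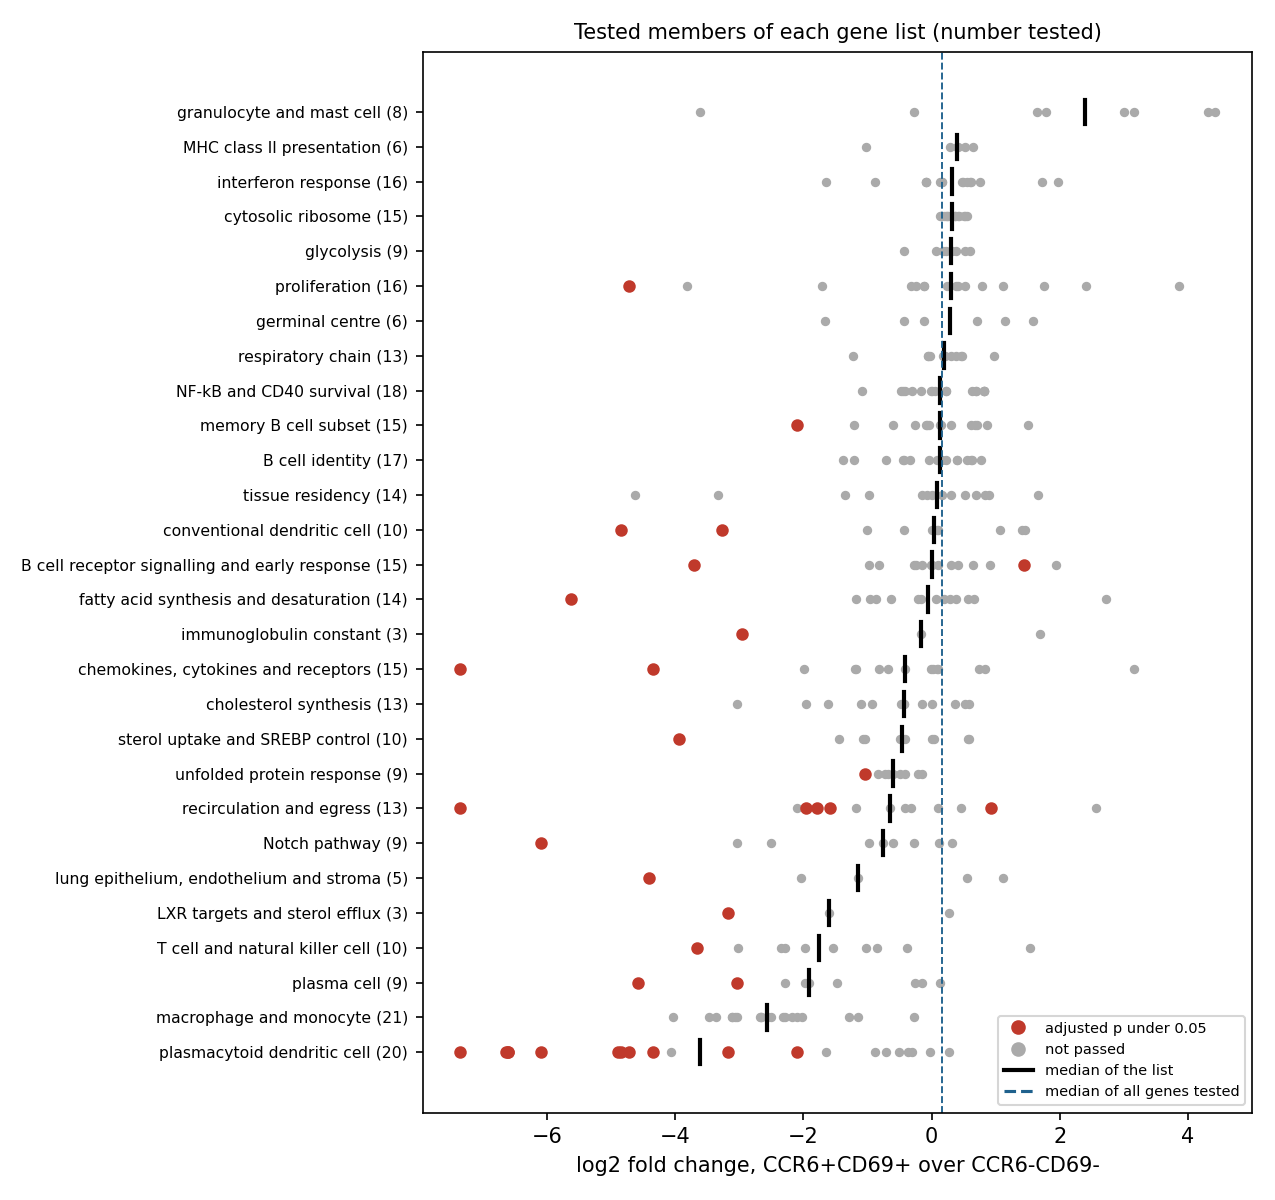
Log2 fold changes, CCR6+CD69+ over CCR6-CD69-, of the tested members of each gene list with at least 1 tested member, red where a gene passed the threshold, with the list's median as a black bar and the median of all genes tested (0.15) as a dashed line. The plasmacytoid dendritic cell list has the lowest median, -3.62, with 11 genes passed, and the macrophage list lies wholly below 0 with none passed in edgeR.

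Lists of B cell programmes were set beside the share called over all genes tested, 1.33% (88 of 6616) in edgeR with 16 libraries. Of 17 tested B cell identity genes none passed in edgeR with trimmed mean scaling and 16 libraries (7 at an unadjusted p under 0.05). With relative log expression scaling 1 passed as lower, as 1 did in DESeq2, and limma voom called 2 as higher and 3 as lower. Among them 10 were positive, but 7 with relative log expression scaling, and the median was 0.12. Fcmr, the Fc receptor for IgM, had a median of 391 CPM in CCR6+CD69+ libraries, against 912 CPM in CCR6-CD69- libraries, with a log2 fold change of -1.38 ± 0.39 (adjusted p = 0.0713) and of -1.63 ± 0.19 with 15 libraries (adjusted p = 1.02e-06). Class II antigen presentation genes had a median of 0.40 with none of 6 passed in edgeR (3 at an unadjusted p under 0.05, none past the threshold in DESeq2, 1 as lower in limma voom), Cd74 at 0.40 ± 0.18 (adjusted p = 0.426) and H2-Eb1 at 0.40 ± 0.19 (adjusted p = 0.469). Of 15 tested memory B cell subset genes, Zeb2 fell and no other passed in edgeR with 16 libraries, while limma voom called 2 as higher and 1 as lower. With 15 libraries Mndal, an interferon-inducible gene, passed as well (log2 fold change 0.69 ± 0.19, adjusted p = 0.0331). Pdcd1lg2, the PD-L2 of memory B cells, had 31.8 to 510.2 CPM in CCR6+CD69+ libraries, against 0 to 142 CPM in CCR6-CD69- libraries, with a log2 fold change of 1.50 ± 0.53 (adjusted p = 0.217), and Nt5e, which encodes CD73, had 0.68 ± 0.49 (adjusted p = 0.693). Among 15 tested genes of B cell receptor signalling and its early response, Egr2 rose and Ccl4 fell in edgeR with 16 libraries. The calls on that list were 1 higher and 2 lower with relative log expression scaling, 2 and 2 in DESeq2, 3 and 3 in limma voom, and 2 and 3 in edgeR with 15 libraries. Ccl4, an inflammatory chemokine, was counted at 0 to 23.7 CPM in CCR6+CD69+ libraries, against 30.2 to 481 CPM in CCR6-CD69- libraries, without overlap (log2 fold change -3.71 ± 0.64, adjusted p = 0.000218). Nr4a2 had 257 to 899 CPM in CCR6+CD69+ libraries, against 0 to 437 CPM in CCR6-CD69- libraries, and missed the threshold (log2 fold change 1.93 ± 0.51, adjusted p = 0.0533). Jun, a component of AP-1, had a log2 fold change of -0.98 ± 0.30 (adjusted p = 0.108) and of -1.08 ± 0.20 with 15 libraries (adjusted p = 0.00115), so that members of the early response stood on both sides. No gene passed among 18 tested of NF-kB and CD40 survival (median 0.13), 16 of the interferon response (0.32), 15 of the cytosolic ribosome (0.31), 13 of the respiratory chain (0.19), 9 of glycolysis (0.31) or 6 of the germinal centre (0.29), in the edgeR fit of 16 libraries. At an unadjusted p under 0.05 these lists held 0, 3, 0, 1, 0 and 2 genes in that order, and DESeq2 called 1 gene among them, in the interferon response, and limma voom called 3 in the interferon response and 1 each in the cytosolic ribosome and the germinal centre.

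SCAP acts on sterol and fatty acid genes through the SREBP transcription factors. Over all genes tested, 88 of 6616 (1.33%) were called in edgeR with 16 libraries. Among these lists the calls were 1 of 14 tested genes of fatty acid synthesis (Fads2) and 1 of 10 of sterol uptake (Lrp8). On the sterol efflux list 1 of 3 was called (Pltp), and all of these calls were lower. None of 13 tested cholesterol synthesis genes passed in edgeR with 16 libraries (2 at an unadjusted p under 0.05, 2 past the threshold in DESeq2, 1 in limma voom), and their median was -0.43. Fdps, which makes farnesyl diphosphate, had 4.97 to 55.4 CPM in CCR6+CD69+ libraries, against 0 to 289.5 CPM in CCR6-CD69- libraries (log2 fold change -1.95 ± 0.62, adjusted p = 0.119), and passed with 15 libraries (-2.19 ± 0.47, adjusted p = 0.00585). Hmgcs1 (-0.43 ± 0.54) and Insig1 (-1.07 ± 0.54), direct SREBP targets, and the desaturase Scd2 (-0.96 ± 0.44) did not pass, with adjusted p of 0.859, 0.527 and 0.465. Fads2, the delta-6 desaturase, fell: it had at most 4.25 CPM in CCR6+CD69+ libraries, against a median of 64.1 and a highest value of 397 CPM in CCR6-CD69- libraries (log2 fold change -5.62 ± 0.98, adjusted p = 0.000218). Lrp8, an apolipoprotein E receptor, fell by 3.94 ± 0.70 (adjusted p = 0.000291), with at most 38.3 CPM in CCR6+CD69+ libraries, against a lowest 7.75, median 174 and highest 433 CPM in CCR6-CD69- libraries. Npc1, the lysosomal cholesterol exporter, had 79.1 to 229.6 CPM in CCR6+CD69+ libraries, against 149.98 to 2790 CPM in CCR6-CD69- libraries, with the highest value in the low-count library (log2 fold change -1.45 ± 0.41, adjusted p = 0.0615), and passed without it (-1.01 ± 0.26, adjusted p = 0.0273). The efflux pump Abca1 had 0.27 ± 0.32 (adjusted p = 0.847), and -0.01 with relative log expression scaling. Of 9 tested Notch pathway genes, Dll4 alone passed in edgeR with 16 libraries, while DESeq2 and limma voom each called 3 as lower. Notch2 (-1.06 ± 0.19, adjusted p = 0.000834) passed as well in edgeR with 15, having had -0.97 ± 0.33 (adjusted p = 0.187) with 16.

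No gene was called for a difference between the genotypes in the size of the effect. All 88 genes had the same direction in cKO and in WT mice when each genotype was given its own effect, and no gene passed in the edgeR test of the difference between genotypes (317 at an unadjusted p under 0.05, 8 past the threshold in DESeq2). Without the low-count library the count was again 0 (420 at an unadjusted p under 0.05). The log2 fold change of Selplg was -1.74 ± 0.54 in cKO and -1.42 ± 0.53 in WT libraries, and that of Hsp90b1 was -1.02 ± 0.32 in cKO and -1.07 ± 0.32 in WT. Ptprf had -6.82 ± 1.37 in cKO and -6.46 ± 1.35 in WT, and Dll4 had -6.10 ± 1.46 in cKO and -6.07 ± 1.44 in WT. Among the 88, 3 had an unadjusted p under 0.05 for the difference, and Cdh17 was one, at 3.67 ± 0.82 in cKO and 1.28 ± 0.72 in WT libraries. A test that misses the threshold does not show that the genotypes respond alike. Tested alone, the genotypes gave 8 calls in cKO and 81 in WT libraries, and the batches gave 98 in batch 1 and 11 in batch 2, which holds the low-count library. For Egr2 the log2 fold change was 0.86 ± 0.34 in batch 1 and 2.17 ± 0.68 in batch 2.

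**Figure D5:**
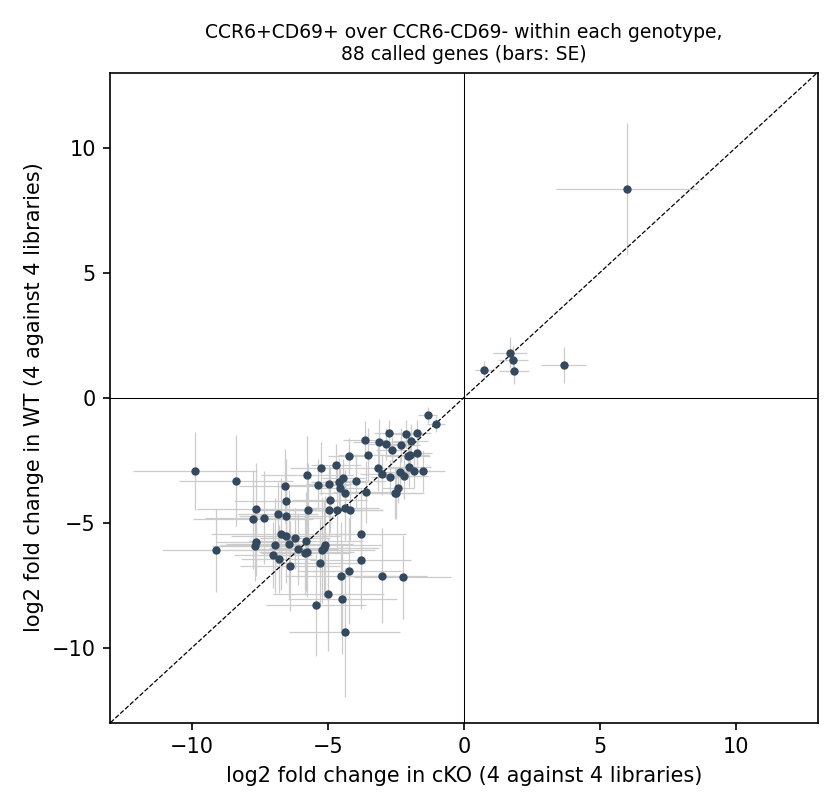
Log2 fold changes, CCR6+CD69+ over CCR6-CD69-, of the 88 called genes estimated in cKO mice (horizontal axis) and in WT mice (vertical axis), each from 4 against 4 libraries, with SE as bars and equality as a dashed line. All 88 points lie in the quadrants where both genotypes have the same sign; both axes share the fit that chose the genes.

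The promoters of genes that fell were set beside those of all genes for short sites. The repressor Zeb2 is known to bind CAGGTG, while E proteins such as Tcf4 bind CANNTG sites. Zeb2 itself fell together with these genes, in the same direction, so a match gives no direction of action. Whether Zeb2 or Tcf4 acts on any of these genes was not tested. Sequences are from RefSeq on GRCm38.p6, from 250 bases before to 50 after the annotated start, and were matched by gene symbol, since no genome of the build named for these counts was used here. Of the 82 genes that fell, 59 had a promoter and 15 of those (25.4%) held CAGGTG on either strand, against 1056 of 5400 tested genes with a promoter (19.6%) and 6098 of all 27025 genes (22.6%). The palindrome CAGCTG stood in 11 of 59 (18.6%), against 16.9% of tested genes, and the AP-1 site TGACTCA, on either strand, in 4 of 59 (6.78%), against 4.52%. Of the 6 genes that rose, 4 had a promoter: 0 held CAGGTG, 2 held CAGCTG and 0 held TGACTCA. A match is a description of letters, not of binding, and none of these shares was tested. The promoter of Ptprf, which also fell, was looked up as well, held no CAGGTG match and is not shown. The promoters of the gene with the deepest fall and of the joining chain, both with a CAGGTG match, are shown in the direction of transcription, with the match in capitals (read as CACCTG on the opposite strand in Jchain). The match starts at position -85 from the start site in Ccr9 (chr9:123766961-123767260, plus strand) and at position 6 in Jchain (chr5:88527848-88528147, minus strand).
Ccr9: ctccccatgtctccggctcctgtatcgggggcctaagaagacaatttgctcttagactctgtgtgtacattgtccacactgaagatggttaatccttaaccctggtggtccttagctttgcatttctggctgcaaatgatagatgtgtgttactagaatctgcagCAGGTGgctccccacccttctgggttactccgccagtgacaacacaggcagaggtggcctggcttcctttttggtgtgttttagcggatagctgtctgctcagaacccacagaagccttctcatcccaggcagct
Jchain: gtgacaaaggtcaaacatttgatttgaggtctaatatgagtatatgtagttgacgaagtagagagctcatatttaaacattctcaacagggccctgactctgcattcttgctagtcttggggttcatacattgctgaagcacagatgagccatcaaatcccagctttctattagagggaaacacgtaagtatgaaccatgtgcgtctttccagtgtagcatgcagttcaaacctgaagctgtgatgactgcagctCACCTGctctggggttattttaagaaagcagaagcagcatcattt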

How the data were processed

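The libraries were made from polyadenylated RNA of sorted cells with a low-input kit, per the labels' protocols. The authors deposited a table of counts per gene, whole numbers that were not normalized. FastQC, STAR and Salmon, with mouse build mm39, are named per the submitters' processing notes; their versions, the counting step and its use of strand are not given in the sources used here. Library totals and CPM were computed over the gene rows analysed.

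The counts of the 16 lung libraries were fitted by edgeR 4.0.16 under R 4.3.3 (filterByExpr over the 4 groups, scaling by trimmed mean of M values, robust quasi-likelihood fit), with genotype, batch and population as terms. Of 18470 gene rows, 35.8% passed the filter and were tested. Adjusted p-values are Benjamini-Hochberg values over all genes tested, with a threshold of 0.05, and errors of fold changes are SE. For edgeR the SE was derived from the test, as the absolute log2 fold change over the square root of the F statistic. It is approximate, and cannot be read as precision where a population has no counts. The difference between genotypes was tested as an interaction. Members and gene lists (29 lists, 593 genes, 358 with a row, 304 tested) were chosen with earlier results of these data known. Named genes are the 12 largest rises and falls among called genes with a mean of at least 5 CPM in the higher population, up to 4 members of each list by p and every called list member, and a fixed set of markers; exceptions, among them the list members Spib, Tcf4, Ccr7, Cxcr4, Hspa5 and Chil3 and the markers at 0, were chosen after their values were seen. Some genes are not reported here. Alternatives were other scaling, DESeq2 1.42.0, limma 3.58.1, other filters and terms, single batches or genotypes, and libraries left out. The scripts were tested on simulated data.

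Total counts ran from 129025 to 8566243, so genes of low level could not be measured in the smallest library. Biological coefficients of variation were high (0.956 in common), and correlations between replicates across genes, on log2 CPM, were 0.691 to 0.777 (cKO) and 0.803 to 0.903 (WT) in CCR6+CD69+ libraries, and 0.419 to 0.681 (cKO) and 0.666 to 0.862 (WT) in CCR6-CD69- libraries.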

Additional observations from a re-analysis of the deposited data

Results flagged for a closer look

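In groups of 8 libraries, a value was singled out when its gap to the nearest other value, on log2(CPM + 1), exceeded Dixon's 95% limit for 8 samples. Of 180 groups examined 50 had such a value, where chance would give about 1 in 20, or 9.0. Most came from cKO CCR6-CD69- replicate 4, the library with the fewest counts and 2134 genes detected, where a gene at 0 lies under a floor of 23.3 CPM.

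Among CCR6+CD69+ libraries, cKO replicate 1 was highest for Adamtsl2 (0.657 CPM), Spon1 (1.31 CPM) and Fcer1g (98.5 CPM). cKO replicate 3 was lowest for Pltp, Ccl4, Cdh1 and Irf7 (each 0 CPM), for Tex2 (2.88 CPM) and for Chil3 (12.5 CPM). WT replicate 4 was highest for Cxcr6, at 1.81 CPM, and cKO replicate 4 for Cd3e, at 15.3 CPM.

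In the CCR6-CD69- library cKO replicate 4, Tamalin, Dll4, Ccnd1, Pltp, Cd4, Fads2, Cdh1, Tyrobp, Fcer1g, Scap, S1pr1, Pdcd1lg2, Nt5e, Insig1, Fdps, Irf7, Cd68, Sel1l and Kynu were each lowest, at 0 CPM. The same library was lowest for Egr2 (15.5 CPM), Selplg (85.3 CPM), Fcmr and Ccr7 (each 23.3 CPM), Spib (163 CPM) and Itgal (139.5 CPM). It was also lowest for Lifr, Lrp8 and Lck (each 7.75 CPM), and for Cd74 (5573 CPM), Pdia6 (77.5 CPM), Pdia3 (46.5 CPM) and Hspa5 (302 CPM). Cd69 (4224 CPM) and Mef2c (3333 CPM) were highest there.

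In other CCR6-CD69- libraries, cKO replicate 3 was highest for Tbc1d8 (971 CPM) and Atp1b1 (406 CPM), cKO replicate 2 was lowest for Scd2 (79.2 CPM) and WT replicate 2 was highest for Mmp9 (8.82 CPM).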

How the results depend on the processing

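All 88 called genes kept their direction under each alternative in which they were tested, but every alternative reused libraries that chose them. Of the 88, 42 passed again in batch 1 alone (85 tested) and 9 in batch 2 alone (83 tested). In WT libraries alone 47 passed again (70 tested), and in cKO libraries alone 5 (51 tested). The number called (88, 6 higher and 82 lower in CCR6+CD69+ libraries) was 298 (57 higher, 241 lower) in DESeq2, 434 (127 and 307) in limma voom with quality weights, 179 (18 and 161) with no count filter and 48 (4 and 44) with a strict one. It was 11 (0 and 11) in batch 2 alone, 8 (0 and 8) in cKO libraries alone, 45 (0 and 45) against a fold minimum of 1 on the log2 scale and 190 (40 and 150) without the library under 500000 counts. Only 2 genes were higher with no batch term, 2 without the libraries led by Chil3, and 23 without those and the low-count library, a set chosen after seeing the data. With 1 library left out at a time the count ran from 59 to 190, with 3 to 40 higher and 56 to 150 lower, and 41 of the 88 passed in all 16 such fits. The difference between genotypes gave 8 genes in DESeq2 and 11 with no count filter. The cause of these shifts was not tested.

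Among the genes named singly, the direction turned in 6, none of which had passed. The Cd69 log2 fold change was -0.30 with relative log expression scaling and in DESeq2, -0.0625 with all 24 libraries, -0.0468 with no batch term, -0.0208 with no genotype term, -0.30 in batch 2, -0.18 in cKO libraries and -0.15 without the libraries led by Chil3, and -0.12 to 0.41 with 1 library left out. The Scap log2 fold change was 0.0655 in batch 2 and 0.0934 in cKO libraries, and the Abca1 log2 fold change was -0.00629 with relative log expression scaling and -0.00404 in DESeq2. The Ccr7 log2 fold change was -0.14 in limma voom, -0.34 in WT libraries, -0.15 without the low-count library, -0.0256 without the libraries led by Chil3, -0.31 without both sets, and -0.15 to 0.27 with 1 library left out. The Iglc2 log2 fold change was 0.0360 with no batch term, 0.68 in batch 1, 0.37 in cKO libraries, 0.21 without the low-count library, 0.0412 without it and the libraries led by Chil3, and -0.36 to 0.21 with 1 library left out, and the Iglc1 log2 fold change was -0.11 to 2.17 with 1 library left out. Further list members turned with relative log expression scaling: the number positive was 7 in place of 10 in B cell identity, 8 in place of 11 in NF-kB and CD40 survival, 6 in place of 8 in tissue residency and in B cell receptor signalling, and 4 in place of 6 in conventional dendritic cells.

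With the replicate number as a block 64 genes were called, 54 of them among the 88. Calls lost there included Ccr9 (adjusted p = 0.0894), Zeb2 (0.167), Sdc1 (0.539), Clec10a (0.178) and Vwa3b (0.0529). Itgad (0.228), Spon1 (0.291) and Adamtsl2 (0.0656) lost theirs as well. Same-numbered libraries of a genotype correlated in their deviations from the group mean at 0.0959 to 0.230, not all above 0.1, and 5 of 8 correlated best with their own number. Same-numbered libraries also shared a batch, which those deviations still held. With deviations taken from the mean of group and batch, the correlations were 0.0211 to 0.0637. These values do not settle whether same-numbered libraries were pairs, and the main fit did not treat them as such.

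Depth limits genes near or under 23.3 CPM in the smallest library, and the chance of counting a low gene differs between libraries of 129025 and 8566243 counts.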
